A study of Mus musculus with 2 samples.

Results

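The 9 genes described here encode subunits of the phagocyte NADPH oxidase (Cybb, Cyba, Ncf1, Ncf4 and Rac2) and enzymes of the pentose phosphate pathway that form NADPH or pass sugars on within it (G6pdx, Pgd, Taldo1 and Tkt). They were chosen by gene symbol from the 26124 genes in the count matrices, and each symbol occurred once. Single cells from the spleens of 2 untreated mice had been sequenced in droplets with a chemistry that counts unique molecular identifiers (UMIs) near the 3′ end of transcripts, at an age of 12 to 16 weeks. Both mice were homozygous for Hbatm1Paz, a targeted alpha globin locus, and carried Tg(HBA-HBBs)41Paz, a human globin transgene with the sickle beta chain. The mouse with sickle cell disease (SCD) was homozygous for Hbbtm1Tow, a targeted beta globin locus, and homozygous for the transgene. The control, called wild-type, was heterozygous for Hbbtm1Tow, hemizygous for the transgene and did not sickle. The suspensions had been enriched for dendritic cells (DCs) by removing other cells with magnetic beads, so the shares of cell types were not those of the whole spleen. Each group was 1 mouse and 1 library. No difference below therefore has a replicate check, and every interval is a 95% interval that covers counting error only.

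The oxidase moves electrons from NADPH in the cytosol across a membrane onto oxygen and so makes superoxide, which phagocytes use against microbes. Its membrane part is a heterodimer of the catalytic subunit gp91phox (Cybb) and p22phox (Cyba). Cytosolic subunits, among them p47phox (Ncf1) and p40phox (Ncf4), and the GTPase Rac2 join it on activation. The NADPH comes largely from the oxidative arm of the pentose phosphate pathway, where glucose-6-phosphate dehydrogenase (G6pdx) and 6-phosphogluconate dehydrogenase (Pgd) each reduce NADP. Transketolase (Tkt) and transaldolase (Taldo1) return the pentoses to glycolytic sugars.

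In the annotation of the mouse genome (GENCODE, GRCm38), all 9 members were protein-coding. Among the oxidase genes, Cybb lay on the minus strand at chrX:9435252-9487771, Cyba on the minus strand at chr8:122424776-122432930 and Ncf1 on the minus strand at chr5:134220053-134229625. Ncf4 lay on the plus strand at chr15:78244801-78262580 and Rac2 on the minus strand at chr15:78559167-78572783. Among the enzymes, G6pdx lay on the minus strand at chrX:74409483-74429194, Pgd on the minus strand at chr4:149149991-149166771, Taldo1 on the plus strand at chr7:141392199-141402968 and Tkt on the plus strand at chr14:30548359-30574720. Cyba, Ncf1 and G6pdx overlapped a gene on the other strand (Gm20388, Gtf2ird2 and Ikbkg), and Tkt contained the microRNA gene Mir3076 on its own strand.

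Promoter sequences from RefSeq (GRCm38.p6) were given for 7 members, and those of Cybb, Taldo1 and G6pdx are shown because the first of them fell most and the second rose most between neutrophil stages, while the third held the only match to a motif searched. Each is the 250 bases before the start of transcription, read 5′ to 3′ on the strand of the gene, at chrX:9469325-9469574 (minus strand), chr7:141391910-141392159 (plus strand) and chrX:74428881-74429130 (minus strand). The start of Cybb in RefSeq lies within the longer gene model given above. Capitals mark a match to TGACNNNGC, the core of an antioxidant response element, on either strand.
Cybb: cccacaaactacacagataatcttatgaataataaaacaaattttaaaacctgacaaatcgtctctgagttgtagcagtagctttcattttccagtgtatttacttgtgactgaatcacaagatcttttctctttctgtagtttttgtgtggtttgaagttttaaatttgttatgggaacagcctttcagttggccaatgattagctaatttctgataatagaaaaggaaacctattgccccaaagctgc
Taldo1: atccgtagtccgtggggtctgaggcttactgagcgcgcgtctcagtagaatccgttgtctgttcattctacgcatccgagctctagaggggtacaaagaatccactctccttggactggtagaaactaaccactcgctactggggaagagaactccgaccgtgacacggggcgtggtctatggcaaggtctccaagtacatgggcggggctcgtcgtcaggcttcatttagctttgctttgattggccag
G6pdx: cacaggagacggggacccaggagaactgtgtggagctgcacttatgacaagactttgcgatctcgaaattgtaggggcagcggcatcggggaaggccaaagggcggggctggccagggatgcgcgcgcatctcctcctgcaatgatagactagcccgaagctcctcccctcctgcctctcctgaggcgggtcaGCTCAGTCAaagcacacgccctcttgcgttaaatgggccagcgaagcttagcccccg
The match in G6pdx was on the opposite strand and began 57 bases before the start. The bases before the start were 34.0% G or C in Cybb, 54.4% in Taldo1 and 61.2% in G6pdx. Of all 32851 promoter windows in the RefSeq table, 10.2% held this motif on either strand. The other motif searched, GAGGAA, a core bound by PU.1, was in 23.3% of all windows and in none of the windows of the 7 members. A match is a description of the letters only, and its absence says nothing of the factor.

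In all, 10845 cells with 97880318 UMIs came from the wild-type mouse and 13447 cells with 189688217 UMIs from the SCD mouse. The filters kept 9423 wild-type cells with a median of 4884 UMIs and 10635 SCD cells with a median of 8282 UMIs. The libraries shared 88 cell barcodes. Cells were clustered with the members left out of the genes that drove the clustering, and clusters were named from marker genes. Each name stands for cells like that type (neutrophil-like, erythroid-like and so on) and is written without the ending, since the names were rebuilt here. Neutrophils numbered 4361 in the wild-type library and 7199 in the SCD library. Conventional DCs numbered 2644 and 706, monocytes 1067 and 1359, plasmacytoid DCs 814 and 615, red pulp macrophages 298 and 157, and erythroid cells 55 and 51. B cells numbered 21 and 288 and were not compared.

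Levels of the members were first compared across cell types, to see where the oxidase and its NADPH supply were transcribed. Levels are UMIs summed over the cells of a type and divided by all UMIs of that type, in counts per 1000000 (CPM). Of the 6 cell types compared, neutrophils or monocytes held the highest level of all 9 members in both libraries. In the wild-type library Cybb was highest in monocytes and the other 8 in neutrophils. Cells with fewer transcripts in all and cells with more of a given transcript cannot be told apart from CPM alone.

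Cybb, the catalytic subunit, stood at 1838 CPM (1812 to 1865) in wild-type monocytes, above neutrophils at 1011 CPM (996 to 1027) and plasmacytoid DCs at 974 CPM (954 to 994). Red pulp macrophages followed at 517 CPM (464 to 576), conventional DCs at 327 CPM (319 to 334) and erythroid cells at 215 CPM (173 to 263). In the SCD library the order of the upper 2 types was turned, with neutrophils at 1804 CPM (1793 to 1814) and monocytes at 1374 CPM (1357 to 1390). Plasmacytoid DCs were at 806 CPM (784 to 829), red pulp macrophages at 543 CPM (475 to 618), conventional DCs at 365 CPM (351 to 379) and erythroid cells at 354 CPM (276 to 448). The last 2 types were not told apart in the SCD library, whereas no neighbours overlapped in the wild-type library.

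Cyba, the partner that stabilizes the catalytic subunit, was the most evenly spread oxidase gene. It stood at 1742 CPM (1721 to 1762) in wild-type neutrophils and 1685 CPM (1660 to 1711) in wild-type monocytes, and at 1527 CPM (1517 to 1537) and 1624 CPM (1606 to 1642) in the SCD library, so that the order of these types differed between the libraries. Conventional DCs were at 1264 CPM (1249 to 1279) and 999 CPM (977 to 1022). Plasmacytoid DCs were at 788 CPM (770 to 806) and 597 CPM (578 to 617), where the SCD interval overlapped that of erythroid cells at 638 CPM (531 to 759).

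The cytosolic subunits were more restricted. Ncf1, the organizer of the complex, stood at 688 CPM (675 to 701) in wild-type and 821 CPM (814 to 829) in SCD neutrophils. The next type, plasmacytoid DCs, was at 235 CPM (225 to 245) and 233 CPM (221 to 246). Monocytes and conventional DCs lay at 183 CPM (174 to 191) and 186 CPM (180 to 191) in the wild-type library and were not told apart, as in the SCD library at 197 CPM (191 to 203) and 201 CPM (191 to 211). Ncf4 stood at 280 CPM (272 to 288) in wild-type and 338 CPM (333 to 343) in SCD neutrophils, at 209 CPM (200 to 218) and 257 CPM (250 to 265) in monocytes, and at 125 CPM in conventional DCs of both libraries. It was at 46.6 CPM (42.3 to 51.2) and 37.5 CPM (32.8 to 42.7) in plasmacytoid DCs, the type with the second level of Ncf1. Rac2, the GTPase, was arranged differently again, with neutrophils at 1224 CPM (1207 to 1241) and 1217 CPM (1209 to 1226) followed by plasmacytoid DCs at 886 CPM (867 to 905) and 988 CPM (963 to 1013). Monocytes held 395 CPM (383 to 407) and 485 CPM (475 to 495) of Rac2.

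Of the enzymes, G6pdx stood at 148 CPM (143 to 155) in wild-type and 222 CPM (218 to 226) in SCD neutrophils, at 139 CPM (132 to 147) and 133 CPM (128 to 138) in monocytes, and at 28.1 CPM (24.8 to 31.7) and 30.6 CPM (26.4 to 35.3) in plasmacytoid DCs. Wild-type neutrophils and monocytes were not told apart. Pgd, the next enzyme of the oxidative arm, was further apart between these types, at 654 CPM (642 to 667) and 573 CPM (567 to 580) in neutrophils and 177 CPM (168 to 185) and 220 CPM (214 to 227) in monocytes. Taldo1 was at 1820 CPM (1799 to 1841) in wild-type and 952 CPM (944 to 959) in SCD neutrophils, and at 866 CPM (848 to 885) and 884 CPM (870 to 897) in monocytes. Tkt was at 538 CPM (527 to 550) and 888 CPM (880 to 895) in neutrophils and at 499 CPM (486 to 513) and 523 CPM (513 to 534) in monocytes. Both enzymes of the non-oxidative arm were above 100 CPM in all 6 types, with Tkt at 200 CPM (191 to 210) in wild-type plasmacytoid DCs and 115 CPM (85.7 to 152) in wild-type erythroid cells.

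**Figure D1:**
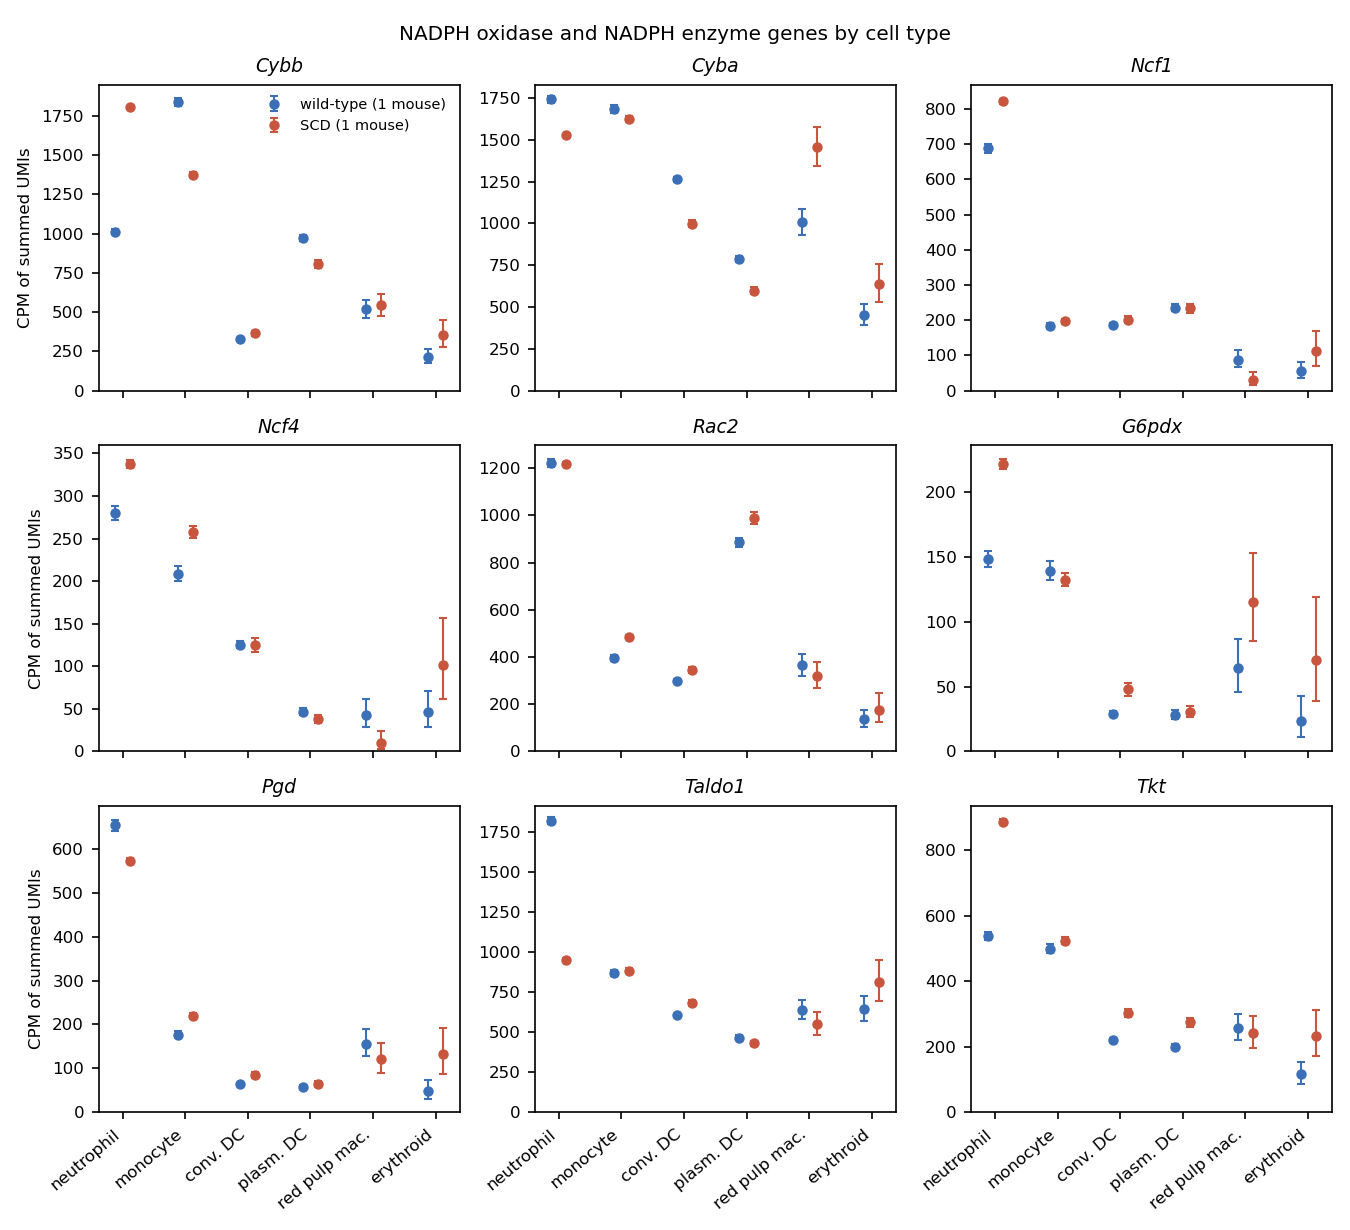
Level of each member (CPM of summed UMIs, linear axis from 0) in 6 cell types of the wild-type (blue) and SCD (red) library, 1 mouse each. Points are the summed level, and bars the exact 95% Poisson interval. Cybb and Tkt are higher and Taldo1 is lower in SCD than in wild-type neutrophils, whereas monocytes differ less.

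The libraries were then compared within each cell type, to ask whether the oxidase and its NADPH supply differed in the SCD spleen. A gene was called higher or lower when the levels were at least 1.5-fold apart after 5 CPM had been added to each, among genes with at least 50 CPM and 20 UMIs in 1 library or both. Of the 9 members in neutrophils, 2 were higher in the SCD library and 1 was lower. Of all 2491 genes tested there, 7.95% were higher and 37.7% lower. The median log2 ratio of all these genes was -0.38, so that most genes lay lower in SCD neutrophils on this scale. Cybb was 1.78-fold higher (1.75 to 1.81), with 16156 UMIs in wild-type and 108919 UMIs in SCD neutrophils. Tkt was 1.65-fold higher (1.61 to 1.69). G6pdx, at 1.49-fold (1.43 to 1.56), stayed just under the threshold. Taldo1 was lower, at 0.523 of the wild-type level (0.516 to 0.53).

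The other 5 members were not called in neutrophils. The ratio of SCD to wild-type was 1.19 (1.17 to 1.22) for Ncf1, 1.21 (1.17 to 1.25) for Ncf4, 0.995 (0.979 to 1.01) for Rac2, 0.877 (0.865 to 0.888) for Cyba and 0.876 (0.857 to 0.896) for Pgd. Scaling by the median ratio of all genes moved every one of these upward, turned Cyba and Pgd to log2 ratios of 0.21 each, and took Taldo1 to -0.53, under the threshold. Ncf1, at 0.65, Ncf4, at 0.66, and G6pdx, at 0.95, then passed it beside Cybb and Tkt, at 1.23 and 1.11, which made 5 members higher and none lower. Under that scaling 20.4% of all genes were higher and 20.4% lower, against 7.95% and 37.7% before it.

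In monocytes, none of the 9 members was called, beside 22.9% of all genes in either direction. The largest difference was that of Cybb, at 0.747 of the wild-type level (0.733 to 0.761). Monocytes fell into clusters that the libraries filled unequally. A cluster led by Vcan and Fn1 held 589 wild-type and 930 SCD cells, with Cybb at 1822 and 1715 CPM. A cluster led by Ace, with markers of non-classical monocytes, held 434 and 54 cells, with Cybb at 2139 and 2481 CPM. A cluster with cell cycle genes among its leading genes held 44 and 375 cells, with Cybb at 767 and 779 CPM. The cell cycle list summed to 571 CPM in wild-type and 2178 CPM in SCD monocytes. In the Ace-led cluster Pgd was 1.88-fold higher in the SCD library (1.51 to 2.33), with 480 and 106 UMIs, beside 14.1% of all genes past 1.5-fold there. The part of this mix in the difference of all monocytes was not tested.

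In conventional DCs none of the 8 members that passed the minimum was called, beside 16.9% of all genes, and in plasmacytoid DCs none of 7, beside 6.93%. Cyba was at 0.79 of the wild-type level (0.771 to 0.811) in conventional DCs and at 0.758 (0.728 to 0.789) in plasmacytoid DCs. Tkt was 1.37-fold higher in both types, with intervals of 1.3 to 1.44 and 1.28 to 1.46. The libraries filled the DC clusters unequally, and within them these differences were smaller. In the 4 conventional DC clusters with enough cells of both libraries, Tkt was at 0.82 of the wild-type level in the Ccr7-led, 1.21 in the Xcr1-led, 1.2 in the Cd209a-led and 1.17 in the Mmp12-led cluster, and Cyba ran from 0.905 to 0.938. In the Siglech-led cluster, which held most plasmacytoid DCs of each library with 653 and 451 cells, Tkt was at 1.04 (0.946 to 1.14) and Cyba at 0.83 (0.791 to 0.87). In the Bcl2-led and Ly6d-led cluster Tkt was at 1.32 (1.15 to 1.52) and Cyba at 0.809 (0.719 to 0.91). The part of the cluster mix in the ratios of all DCs was not tested. The level of neutrophil RNA differed between the libraries in these cells. One cluster of conventional DCs, with 184 wild-type and 35 SCD cells, was rich in called doublets, at 73.4% and 22.9% of its cells. S100a8 and S100a9, abundant transcripts of neutrophils, summed to 7271 CPM in wild-type and 25638 CPM in SCD conventional DCs, and to 954 and 13000 CPM without that cluster. None of the members was called without it either, and the log2 ratio of Cybb was then 0.00, against 0.16. In the cluster of conventional DCs led by Xcr1, with 171 wild-type and 234 SCD cells, these genes summed to 2123 and 22382 CPM, and Cybb was at 24.7 and 131 CPM. In a cluster led by Cd209a, with 150 and 122 cells, they summed to 1369 and 4488 CPM, and Cybb was at 911 and 789 CPM. The threshold was passed in that Xcr1-led cluster by Cybb and by Rac2, which was 1.66-fold higher (1.47 to 1.87), beside 4.16% of all genes. In a Ccr7-led cluster of conventional DCs, with 619 and 86 cells, Cybb was at 0.633 of the wild-type level (0.468 to 0.841) and Pgd was 1.83-fold higher (1.18 to 2.76), beside 17.1%. A cluster of plasmacytoid DCs led by Bcl2 and Ly6d, with 65 and 141 cells, had Rac2 1.63-fold higher (1.47 to 1.82) and Taldo1 at 0.659 (0.595 to 0.729), beside 28.2%. Another plasmacytoid DC cluster, of 96 wild-type and 23 SCD cells, was made up mostly of called doublets, at 91.7% and 65.2% of its cells, against 10.9% and 2.6% in all plasmacytoid DCs. S100a8 and S100a9 summed to 3014 and 5627 CPM in all plasmacytoid DCs and to 650 and 4252 CPM without that cluster. No member was called in plasmacytoid DCs without it, nor with all called doublets removed. The part of doublets and of neutrophil RNA in these values was not tested.

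In red pulp macrophages 2 of 8 members were called, beside 26.8% of all genes. G6pdx was 1.8-fold higher (1.17 to 2.79) with 42 wild-type and 49 SCD UMIs, and Ncf1 was at 0.347 of the wild-type level (0.174 to 0.64) with 58 and 13 UMIs. Ncf4, under the minimum, had 28 and 4 UMIs. These cells were shallow, with medians of 1350 and 1553 UMIs, and S100a8 and S100a9 summed to 14072 CPM in wild-type and 9891 CPM in SCD macrophages. Camp, Ngp, Ltf and Lcn2, transcripts of neutrophil granules, ran the other way, at a sum of 324 and 1504 CPM, as did Ly6g, at 7.63 and 21.3 CPM. The part of neutrophil RNA in the Ncf1 values was not tested. Among cells with at least 1000 genes the log2 ratio of Ncf1 was 0.07, against -1.39. In erythroid cells 5 of 8 members were called, all higher in the SCD library, beside 66.2% of all genes, with 20 to 93 UMIs of each of these 5 members in a library. That share lies close to the background.

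Neutrophils were then split into stages, because the libraries differed in the maturity of these cells. Stages were named from markers of promyelocytes (Elane, Mpo), dividing cells (Mki67, Top2a), immature (Ltf, Camp, Ngp), intermediate (Mmp8, Retnlg) and mature cells (Il1b, Cxcr2). A cluster led by Orm1 and Olr1 could not be given a single stage and is described by these genes. The mature stage took 84.6% of the neutrophils of the wild-type library (83.5% to 85.7%) and 13.8% of those of the SCD library. The intermediate stage made up 6.67% and 43.2%, the immature stage 4.29% and 20.1%, the Orm1-led cluster 2.59% and 11.8%, and the dividing stage 1.51% and 8.75%. Promyelocytes numbered 13 in the wild-type and 165 in the SCD library.

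Cybb was low in promyelocytes, high in the Orm1-led and immature cells and lowest in mature cells. In the wild-type library it stood at 846 CPM (751 to 951) in promyelocytes, 1777 CPM (1709 to 1847) in dividing cells, 2789 CPM (2704 to 2876) in the Orm1-led cluster and 2750 CPM (2677 to 2825) in immature cells. It then stood at 1534 CPM (1477 to 1591) in intermediate and 111 CPM (104 to 118) in mature cells. The SCD library gave 824 CPM (796 to 852), 1785 CPM (1762 to 1809), 2615 CPM (2583 to 2647), 2599 CPM (2573 to 2625), 1153 CPM (1137 to 1169) and 74.2 CPM (63.3 to 86.4) in the same order. No fold between the immature and mature stages is given, since the mature level cannot be told from free RNA by the shares of cells given next. Only the Orm1-led and immature cells were not told apart.

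The fall of Cybb ran through the intermediate stage. Of its 2 sub-clusters, the one led by Gpr27 and Stfa3 held 1929 CPM for the wild-type mouse and 1653 CPM for the SCD mouse, and the one led by Cstdc4 and Retnlg held 611 and 354 CPM. Counted per cell, Cybb went from 28.9 UMIs in immature to 0.268 in mature wild-type cells, and from 26.0 to 0.166 in SCD cells. The median of all UMIs per cell was 10364 and 2325 in these wild-type stages and 9559 and 2110 in the SCD stages. With every cell thinned to 1000 UMIs, 93.6% of 187 wild-type immature cells (89.1% to 96.6%) and 91.3% of 1449 SCD immature cells (89.7% to 92.7%) had a Cybb UMI. The same share was 8.31% (7.44% to 9.26%) in mature wild-type and 7.11% (5.58% to 8.89%) in mature SCD cells. Erythroid cells, which should lack the gene, had 14.5% (6.5% to 26.7%) and 17.6% (8.4% to 30.9%), at medians of 7747 and 2470 UMIs. The shares in mature neutrophils were not above that background, so Cybb transcripts in them cannot be told from free RNA by these shares. The background itself is uncertain. Without thinning, 93 wild-type Cybb UMIs lay in 19 of 55 erythroid cells, and 70 SCD UMIs in 12 of 51. Whether they came from free RNA or from mixed cells was not tested.

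Cyba, which pairs with Cybb in the membrane, did not follow it. Its level in mature cells was 1784 CPM (1756 to 1812) and 1542 CPM (1491 to 1594), against 1778 CPM (1719 to 1838) and 1564 CPM (1543 to 1584) in immature cells. Its lowest level was in the intermediate stage, at 1383 CPM (1330 to 1438) and 1241 CPM (1224 to 1258). Ncf1 was highest there in the wild-type library, at 1101 CPM (1054 to 1150), against 1017 CPM (973 to 1063) in immature and 514 CPM (499 to 529) in mature cells. In the SCD library it was at 971 CPM (957 to 986), 968 CPM (952 to 984) and 515 CPM (486 to 546). Unlike Cybb, Ncf1 was still seen in 37.0% of thinned mature wild-type cells (35.4% to 38.6%) and in 38.1% of SCD cells (35.0% to 41.2%), against 0 of 55 and 3 of 51 erythroid cells.

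Ncf4 and Rac2 stayed within a narrow range, as Cyba did. Ncf4 lay between 238 and 357 CPM over the stages of the wild-type library and between 266 and 383 CPM in the SCD library. Rac2 went from 1013 CPM (908 to 1127) in promyelocytes to 1268 CPM (1244 to 1291) in mature wild-type cells and from 943 CPM (913 to 973) to 1380 CPM (1331 to 1429) in SCD cells. Of the 5 oxidase members, Cybb and Ncf1 were thus at least 1.5-fold lower in mature than in immature cells in both libraries, and Cyba, Ncf4 and Rac2 were not. This split depended on the scaling. With the stage and granule genes left out of the totals, the log2 ratios of mature over immature cells were -0.64 and -0.65 for Cyba, -1.16 and -0.999 for Ncf4 and -0.60 and -0.53 for Rac2 in the wild-type and SCD libraries, so that of these only Rac2 in the SCD library stayed under 1.5-fold.

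The enzymes split as well. G6pdx was at 255 CPM (233 to 279) in immature and 83.7 CPM (77.8 to 89.9) in mature wild-type cells, and at 277 CPM (268 to 286) and 95.4 CPM (83.0 to 109) in SCD cells. Tkt was highest in the Orm1-led cluster, at 1229 CPM (1173 to 1288) and 1119 CPM (1098 to 1140), and lowest in mature cells, at 196 CPM (187 to 205) and 260 CPM (240 to 283). Both fell together with Cybb from the immature to the mature stage, by 3.05-fold and 5-fold in the wild-type and by 2.90-fold and 3.82-fold in the SCD library.

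Taldo1 ran the other way, and Pgd did so on this scale but not with the stage and granule genes out of the totals, where its log2 ratio of mature over immature cells was -0.20 and -0.33 and that of Taldo1 1.03 and 1.14. Pgd went from 286 CPM (232 to 349) in promyelocytes to 846 CPM (805 to 889) in intermediate wild-type cells and was at 740 CPM (722 to 758) in mature ones. In the SCD library it went from 311 CPM (294 to 329) to 860 CPM (846 to 874) and 681 CPM (648 to 717). Taldo1 stayed near 600 CPM from promyelocytes to the Orm1-led cluster, was at 807 CPM (768 to 848) in immature and 1348 CPM (1295 to 1402) in intermediate cells, and reached 2586 CPM (2553 to 2620) in mature wild-type cells. The SCD values of these 3 stages were 748 CPM (734 to 763), 1447 CPM (1429 to 1465) and 2574 CPM (2508 to 2641). This was a rise of 3.2-fold and 3.44-fold from immature to mature cells in the share of transcripts. Counted per cell, Taldo1 was at 8.48 and 6.25 UMIs in these wild-type stages and at 7.48 and 5.77 UMIs in the SCD stages, in cells with far fewer UMIs in all.

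Set against all expressed genes, 1 of the 9 members was higher and 4 were lower in mature than in immature cells by 1.5-fold in each library. Of all genes, 55.2% were higher and 14.2% lower in the wild-type library, and 55.5% were higher and 12.8% lower in the SCD library. The median log2 ratio of all genes was 0.70 and 0.71, and 0.09 and 0.11 when the stage and granule genes, which took 49.2% of UMIs in immature and 20.6% in mature wild-type cells, were left out of the totals. Relative to that median, the log2 ratio of -2.29 for Tkt in the wild-type library was a larger fall, and that of 1.67 for Taldo1 was a rise of under 1 log2 unit. Cybb was among the 4 lower members, and the size of its fall is not given because its mature level was not above background. With the stage and granule genes left out of the totals, Cyba and Ncf4 also passed 1.5-fold lower in both libraries, and Rac2 in the wild-type library. The share of all genes past 1.5-fold under that scaling is not given. Stages were defined by clustering the same cells, so these differences are a description.

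**Figure D2:**
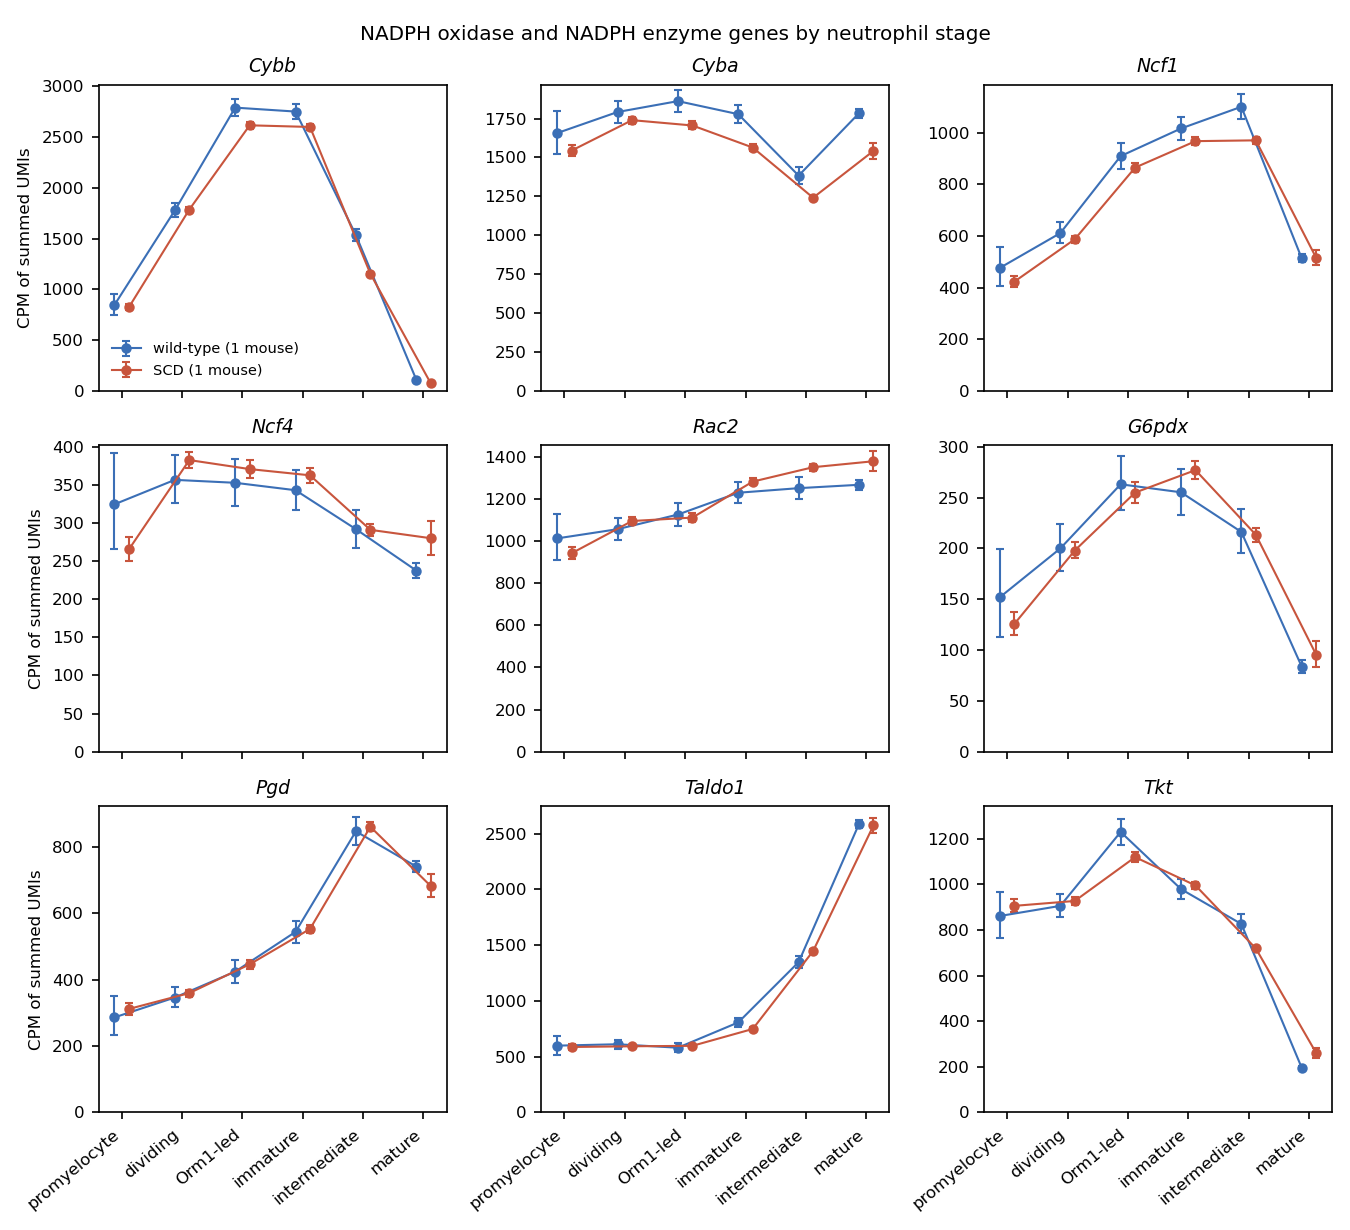
Level of each member (CPM of summed UMIs, linear axis from 0) along the neutrophil stages in the wild-type (blue) and SCD (red) library, 1 mouse each, with exact 95% Poisson intervals. The wild-type promyelocyte point rests on 13 cells. In both libraries Cybb, Tkt and G6pdx fall and Taldo1 rises toward the mature stage. Cybb stands at 1534 CPM in wild-type and 1153 CPM in SCD intermediate cells, and Cyba is lower in SCD in the immature, intermediate and mature stages.

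Within the stages, the libraries differed less than in neutrophils as a whole for Cybb, Tkt and Taldo1, the members called there. This did not hold for Cyba and Rac2, at log2 ratios of -0.19 and -0.01 in all neutrophils and of -0.21 and 0.12 in mature cells. None of the 9 members was called in any of the 5 stages compared, beside 2.25% of all genes in dividing cells, 1.71% in the Orm1-led cluster, 1.94% in immature cells, 3.42% in intermediate cells and 6.57% in mature cells. In the dividing stage, Cybb had the ratio 1 (0.964 to 1.05), Tkt 1.02 (0.967 to 1.08) and Taldo1 0.97 (0.905 to 1.04). In the immature stage, the same genes had ratios of 0.945 (0.918 to 0.972), 1.02 (0.969 to 1.07) and 0.927 (0.879 to 0.978). Taldo1 was at 0.995 (0.967 to 1.02) in mature cells, the stage with its highest level. In 7 sub-clusters of the neutrophils held by both libraries, the threshold was passed by Cybb in 3, by G6pdx in 1 and by Tkt in 1. Cybb was at 0.579 of the wild-type level (0.517 to 0.651) in the intermediate sub-cluster led by Cstdc4 and Retnlg, with 338 and 2386 UMIs, beside 7.4% of all genes there. In the mature sub-cluster led by Fos and Dusp1, beside 12.3% of all genes, Cybb was at 0.519 (0.258 to 0.935) and G6pdx at 0.351 (0.128 to 0.769), but on 11 and 6 SCD UMIs. In a mature sub-cluster led by Ccl5, with mitochondrial and globin transcripts also among its leading genes, 86 wild-type and 65 SCD cells had Cybb at 0.174 (0.0607 to 0.409) on 45 and 6 UMIs, beside 25% of all genes. Tkt was 1.53-fold higher (1.33 to 1.75) in the mature sub-cluster led by Clec4n and Slfn5, beside 10.9%. Across the 5 stages, the fold of SCD over wild-type ran from 0.969 to 1.14 for G6pdx, from 0.921 to 1.05 for Pgd, from 0.987 to 1.09 for Rac2 and from 0.997 to 1.18 for Ncf4.

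The largest differences within a stage were those of Cybb and Tkt in the later stages. Cybb was at 0.752 of the wild-type level (0.723 to 0.782) in intermediate cells and at 0.67 (0.564 to 0.79) in mature cells, the latter at levels not told from free RNA. With each library clustered on its own, the log2 ratio of Cybb in intermediate cells was 0.64, against -0.41, higher and past the threshold. Without the mitochondrial and ribosomal filter the log2 ratio of Cybb in mature cells was 0.21, against -0.55. Tkt was 1.33-fold higher (1.21 to 1.46) in mature cells, a log2 ratio of 0.40 that reached from 0.27 to 0.82 over the alternatives and passed the threshold in 3 of them. Different sub-clusters held most mature cells of each library. One led by Fos and Dusp1 held 2610 wild-type and 94 SCD cells, and one led by Clec4n and Slfn5 held 993 and 833 cells. Tkt was at 205 and 303 CPM in the first and at 173 and 264 CPM in the second. Cyba was below the wild-type level in all 5 stages, from 0.864 to 0.971, with intervals under 1 in 4 of them.

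When the stages were given the same weights in both libraries, those of the wild-type cells, none of the 9 members was called, beside 5.34% of all genes. These values average stage levels by numbers of wild-type cells, without promyelocytes, whereas those of all neutrophils pool the UMIs. The wild-type level of Cybb was thus 1011 CPM pooled and 415 CPM averaged, and that of Taldo1 1820 and 2345 CPM. The move from the pooled to the averaged log2 ratio is therefore not that of the stage mix alone. The log2 ratio of Cybb went from 0.83 to -0.25 (-0.30 to -0.20), that of Tkt from 0.72 to 0.20 (0.11 to 0.28), that of G6pdx from 0.56 to 0.13 (-0.02 to 0.28) and that of Taldo1 from -0.93 to 0.00 (-0.04 to 0.04). Ncf1 went from 0.25 to -0.03 (-0.10 to 0.04). Cyba, at -0.19 and -0.20 (-0.25 to -0.15), hardly moved. The signs of the small values left for Cybb, Tkt and G6pdx changed with the alternatives, which gave -0.31 to 0.10, -0.04 to 0.49 and -0.42 to 0.19. Those of Ncf1 and Taldo1 did so too, at -0.09 to 0.08 and -0.12 to 0.06, while Cyba stayed between -0.32 and -0.09.

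**Figure D3:**
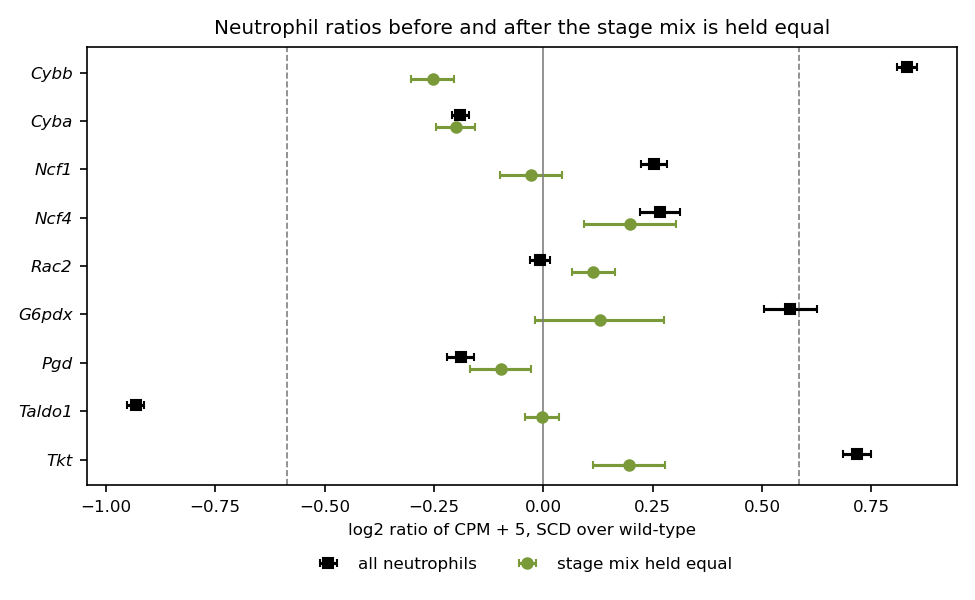
Log2 ratio of SCD over wild-type (CPM with 5 added) of each member in all neutrophils (black squares) and with the stages weighted equally in both libraries (green circles), 1 mouse per group. Squares pool all UMIs, and circles average stage levels by numbers of wild-type cells, without promyelocytes. Bars are 95% intervals from counting error by a normal approximation, and dashed lines mark 1.5-fold. Cybb, Tkt and Taldo1 lie outside the dashed lines before and inside them after the weighting.

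Neutrophils were also binned by their own transcripts, without clusters. Each cell was thinned to 1000 UMIs and placed by the share of mature-stage list UMIs among the UMIs of all stage lists. In the lowest bin, under 5%, Cybb was at 2347 CPM (2308 to 2386) in 490 wild-type cells and 2146 CPM (2133 to 2159) in 4191 SCD cells. In the bin from 5% to 20% it was at 1142 CPM (1077 to 1209) and 702 CPM (684 to 720), the largest gap between the libraries for this gene and past 1.5-fold, beside 8.79% of all genes in that bin. From 20% to 50% it was at 156 CPM (135 to 178) and 161 CPM (145 to 178). In the bin from 50% to 80%, with 2408 and 748 cells, Taldo1 was at 2624 CPM (2582 to 2666) and 2590 CPM (2513 to 2668). Tkt was at 265 CPM (238 to 294) and 429 CPM (403 to 457) in the bin from 20% to 50%, and at 153 CPM (135 to 172) and 251 CPM (190 to 325) in the bin above 80%. It was thus more than 1.5-fold higher in the SCD library in 2 of the 5 bins, beside 16.9% of all genes in each of these bins. In the other bins it was at 1010 and 971 CPM, 785 and 688 CPM, and 196 and 241 CPM, from the lowest up. The bins are ranges of a score and not cell types, and 1003 cells lay within 2 percentage points of the lowest cut.

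**Figure D4:**
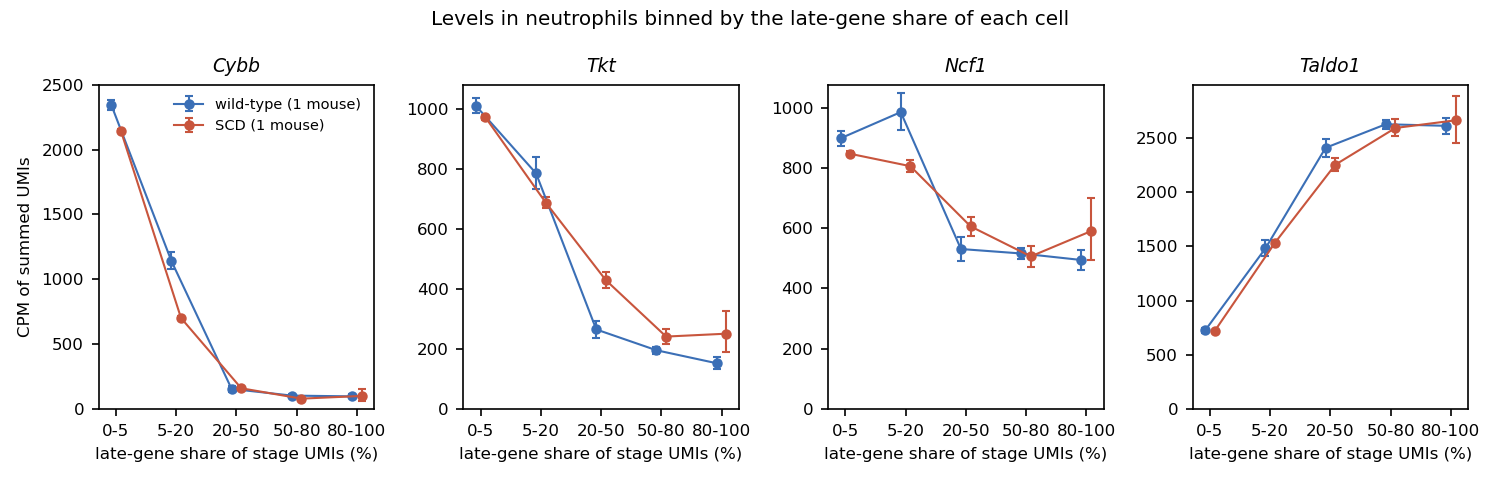
Levels of Cybb, Tkt, Ncf1 and Taldo1 (CPM of summed UMIs, linear axis from 0) in neutrophils binned by the share of mature-stage list UMIs among all stage list UMIs of each cell (percent), wild-type in blue and SCD in red, 1 mouse each, with exact 95% Poisson intervals. Cybb falls between the first and the third bin and Taldo1 rises over the same bins in both libraries.

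The other genes of both pathways were taken from lists that held no member. Of 19 further oxidase genes, 9 were expressed in neutrophils, of which 1 was higher and 4 were lower in the SCD library, with a median log2 ratio of -0.42 beside -0.38 for all genes. Of all genes, 7.95% were higher and 37.7% lower, so the share lower in this list lies near the background. Prex1, an exchange factor for Rac, was at 132 CPM in wild-type and 60.4 CPM in SCD neutrophils. Rac1 was at 413 and 257 CPM, and Dock2, another exchange factor for Rac, at 187 and 117 CPM. Between immature and mature cells Rac1 went from 222 to 548 CPM in the wild-type library and from 209 to 540 CPM in the SCD library, the reverse of Cybb. Hvcn1, the proton channel that balances the charge moved by the oxidase, was higher in SCD neutrophils, at 36.2 and 63.6 CPM, and lay at 77.9 and 74.0 CPM in immature and 4.49 and 5.40 CPM in mature cells. Arhgdib, which holds Rac in the cytosol, was at 2212 and 3201 CPM and Rap1a at 153 and 144 CPM. None of the expressed oxidase genes of this list was called in any of the 5 stages.

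In monocytes, which the libraries filled with unequal shares of dividing and Ace-led cells, 5 of the 9 expressed genes of this list were lower and none was higher in the SCD library, among them Prex1 at 141 and 88.1 CPM, with a median log2 ratio of -0.65 beside -0.08 for all genes, of which 15.7% were lower and 7.2% higher. Nox1, Nox3, Nox4, Noxa1, Noxo1, Duox1, Duox2 and their maturation factors did not pass the minimum in any of the 6 cell types.

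Of the other NADPH and pentose phosphate genes, 18 of 19 had a symbol found once, and 4 were expressed in neutrophils. Pgls, the lactonase between G6pdx and Pgd, was higher in SCD neutrophils, at 98.4 and 171 CPM, and was highest in promyelocytes, at 381 and 406 CPM. Nadk, the kinase that makes NADP from NAD, was lower, at 427 and 229 CPM, and stood at 547 and 479 CPM in mature cells. Its log2 ratio of mature over immature cells was 0.71 and 0.94, beside medians of 0.70 and 0.71 for all genes, and 0.08 and 0.32 with the stage and granule genes out of the totals. Rpe and Rpia, which interconvert pentose phosphates, were at 47.4 and 58.0 CPM and at 40 and 51.7 CPM. Idh1, a cytosolic NADPH source outside the pathway, was at 25.1 and 28.0 CPM in neutrophils and at 136 and 169 CPM in monocytes. Me1, the cytosolic malic enzyme, had 0 and 2 UMIs in neutrophils. In the stages, none of the expressed genes of this list was called.

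The genes whose pattern was most like that of Cybb and G6pdx were sought over 22 units, each a cell type other than neutrophils, or a neutrophil stage, in 1 library with at least 50 cells. Units of a library share its depth, and many share neutrophil RNA, so the correlations are descriptions. Of 6065 genes, Flot2, Nqo2, Lims1, Galns and Slc25a24 were closest to Cybb, with Pearson r of 0.83, 0.83, 0.82, 0.82 and 0.82 on log2 values. Those closest to G6pdx were Megf9, Mgst1, Sqor, Aoah and Aldoa, with r of 0.95, 0.94, 0.93, 0.92 and 0.92. Among the members, Cybb had its highest r with Tkt, at 0.82, followed by G6pdx, at 0.68, and was at 0.49 with its partner Cyba and at -0.28 with Taldo1. G6pdx had r of 0.89 with Tkt and 0.84 with Pgd.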

How the data were processed

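The deposited files held raw UMI counts per gene and cell, which the authors had made with Cell Ranger 4.0.0 on the mouse genome GRCm38 per the submitters' processing notes. Each group was 1 library. Cells with 500 to 5000 genes, under 15% mitochondrial and under 30% ribosomal UMIs were kept, which was 86.9% of wild-type and 79.1% of SCD cells. Counts were scaled with scran 1.30.0 (R 4.3.3), and 2000 variable genes, from which the members were left out, gave 30 components, 15 neighbours and Leiden clusters at resolution 1 (scanpy 1.11.5, leidenalg 0.10.2, Python 3.11.15). Clusters were named from marker lists or left unnamed. Scrublet called 3.81% of wild-type and 2.01% of SCD cells doublets, which were kept in the main results.

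Counts were summed per library and cell type or stage. Intervals were exact Poisson for levels, exact conditional for folds and Clopper-Pearson for shares. Those of the log2 ratios with equal stage weights were normal approximations of counting error. With 1 library per group no test across samples was made. Folds and their intervals were taken from the levels as they stood, and log2 ratios and calls after adding 5 CPM to each level. Calls were made among genes with at least 50 CPM and 20 UMIs in either library. The scripts were tested on simulated data. All 9 members were named, with Rac1, Pgls, Idh1 and Me1 and the 3 highest and 3 lowest genes of each further list in neutrophils, the lists being used without 1 oxidase gene that is not reported here. The members and lists were chosen with earlier results of these data known. Alternatives were other scalings, pseudocounts, cell filters, cluster settings, doublet removal, the 2-fold threshold and other stage weights, and, added after seeing the data, leaving out shared barcodes or the doublet-rich DC cluster and weighting by sub-cluster. Promoters were taken from RefSeq (GRCm38.p6).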

Additional observations from a re-analysis of the deposited data

Results flagged for a closer look

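Ncf1 differed between the libraries in opposite directions in erythroid cells and red pulp macrophages, with log2 ratios of SCD over wild-type of 0.95 and -1.39. These rest on 24 and 22 UMIs in erythroid cells and 58 and 13 UMIs in macrophages, and the difference between the types was not tested. Among cells with at least 1000 genes the macrophage value was 0.065, and the median log2 ratio of all genes tested in erythroid cells was 0.72.

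Cells with more than 5000 genes, 295 in the wild-type and 1220 in the SCD library, entered none of the main comparisons. In their summed counts Cybb was 2.02-fold higher in the SCD library (100.1 and 201.7 CPM), Ncf4 1.91-fold, Pgd 1.66-fold, G6pdx 1.63-fold, Ncf1 1.62-fold and Rac2 1.58-fold. The ratios of Cyba, Tkt and Taldo1 were 1.24, 1.13 and 0.942. Of all 3324 genes tested in these cells, 3.28% were at least 1.5-fold higher, and the median log2 ratio was 0.01. S100a8 and S100a9 summed to 3910 and 11791 CPM in these cells, at medians of 56187 and 50433 UMIs. Doublets were not scored in them, and the part of doublets or of neutrophil RNA in these ratios was not tested.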

How the results depend on the processing

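No paired analysis was possible because there was 1 mouse per genotype, and for the same reason leaving out replicates was not done. Of 164 recomputed counts of members called, 143 stayed within 1.5 times the main count, and of 1287 log2 ratios of single members 1019 stayed within the counting interval. All 48 recomputed shares of cells with a UMI moved with the depth. Cybb in mature wild-type cells was at 8.31% with cells thinned to 1000 UMIs, 15.9% at 2000 UMIs and 17.3% without thinning. No member was called with equal stage weights, in monocytes, or in dividing or immature cells under any alternative run.

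Each count is followed in parentheses by the share of all genes past the same threshold in either direction. In neutrophils the count of 3 (45.6%) became 5 with median-of-ratios scaling (40.7%), 6 with totals that left out stage and granule genes (41.7%), 0 at 2-fold (21%) and 1 with at least 1000 genes per cell (34.3%). In erythroid cells the count of 5 (66.2%) became 0 with median-of-ratios scaling (42.2%), 2 at 2-fold (38.9%), 1 with no upper limit on genes (2.45%) and 8 with total count normalization (63.3%). In red pulp macrophages 2 (26.8%) became 1 at 2-fold (9.37%), with at least 1000 genes (31.5%) and without the mitochondrial and ribosomal filter (33.7%). In conventional DCs 0 (16.9%) became 1 with no CPM minimum (11.2%), no upper limit on genes (17.5%) or total count normalization (17%), and in plasmacytoid DCs 0 (6.93%) became 2 with at least 1000 genes (7.83%), without the mitochondrial and ribosomal filter (8.85%) or with total count normalization (7.72%). In intermediate cells 0 (3.42%) became 1, Cybb, which was higher, when each sample was clustered alone (16.9%), and in mature cells 0 (6.57%) became 1 without that filter (17%), with total count normalization (9.83%) or with the members among the variable genes (12.7%). Of the 1287 log2 ratios 138 had the other sign than the main value, 3 of them past 1.5-fold. Among members called in the main results, directions reversed for Cybb in erythroid cells (-0.15 with median-of-ratios scaling, -0.98 without called doublets), Ncf4 in erythroid cells (-0.17 without called doublets) and Ncf1 in red pulp macrophages (0.065 with at least 1000 genes). The causes were not tested. With at least 1000 genes there was no erythroid or immature value, and with samples clustered alone no dividing, immature or erythroid value. Levels under about 50 CPM in the erythroid cells and macrophages rest on few UMIs, which limits their ratios.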
